A study of Mus musculus with 8 samples.

Results

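The genes described here are 10 transcripts of the circadian clock and of its direct output: Dbp, Tef, Hlf, Nr1d1, Nr1d2, Per1, Per2, Nfil3, Clock and Arntl. Every probe annotated to one of these symbols was taken, which gave 18 of the 25697 probes on the array and 10 of 16593 genes. Expression was measured in non-tumour liver of male A/J mice, an inbred strain, on 8 Illumina bead arrays in 4 groups of 2 arrays. The groups were carbon tetrachloride (CCl4), CCl4 with erlotinib 2 mg, CCl4 with erlotinib 5 mg, and vehicle. CCl4 is a hepatotoxin that causes repeated injury and scarring of the liver, and erlotinib is a kinase inhibitor of the receptor for epidermal growth factor. Animals were gavaged 3 times a week for 18 weeks with 0.1 cc of 40% CCl4 in olive oil or with vehicle, so that every erlotinib array also carries CCl4 and no group received erlotinib alone. They were killed in week 19, after 1 week without CCl4, while the source names read week 18. The sources used here state neither what the erlotinib dose is relative to nor when the drug was given.

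The mammalian clock is a transcriptional loop. CLOCK and BMAL1 (the product of Arntl) activate genes through E-boxes, among them the Per and Cry genes, whose products repress CLOCK and BMAL1 in turn. The same pair drives Nr1d1 and Nr1d2, which encode the repressors REV-ERB alpha and beta, and the proline and acid-rich (PAR) transcription factors Dbp, Tef and Hlf. NFIL3 competes with the PAR factors for D-boxes, and its gene is repressed by the REV-ERB proteins through ROR elements. In liver these transcripts cycle over the day, so their level depends on the hour of death, and the PAR factors act on drug and bile acid metabolism.

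The sources used here state no hour of death, slide or date of labelling, and a group difference in any of them cannot be told apart from the treatment. Sample titles carry codes that begin with OO for vehicle and CT for every other array, and whatever they mark coincides with CCl4. No label says whether a group's arrays stem from separate animals, so p-values measure only the spread between these arrays, and 2 arrays a group limit the precision. In whole liver, fewer cells of a type and less RNA per cell cannot be told apart.

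The promoters of the 4 members called changed in at least 1 comparison are shown, as the 250 bases before an annotated start in RefSeq on GRCm38.p6, to set their clock elements beside their expression. They lie at chr7:45704997-45705246 (plus strand) for Dbp, chr11:98775378-98775627 (minus strand) for Nr1d1, chr13:52981040-52981289 (minus strand) for Nfil3 and chr15:81802423-81802672 (plus strand, the first of 2 annotated starts) for Tef. In RefSeq the Dbp gene spans chr7:45705100-45710203 and the Nfil3 gene chr13:52967209-52982878. The Dbp window therefore lies largely, and the Nfil3 window wholly, inside the span of its gene. Capitals mark a match to a searched motif.
Dbp: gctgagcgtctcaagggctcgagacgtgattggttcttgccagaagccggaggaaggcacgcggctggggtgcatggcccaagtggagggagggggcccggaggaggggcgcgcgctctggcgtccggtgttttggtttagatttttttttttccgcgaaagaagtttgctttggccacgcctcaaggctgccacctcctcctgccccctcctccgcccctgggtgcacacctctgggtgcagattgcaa
Nr1d1: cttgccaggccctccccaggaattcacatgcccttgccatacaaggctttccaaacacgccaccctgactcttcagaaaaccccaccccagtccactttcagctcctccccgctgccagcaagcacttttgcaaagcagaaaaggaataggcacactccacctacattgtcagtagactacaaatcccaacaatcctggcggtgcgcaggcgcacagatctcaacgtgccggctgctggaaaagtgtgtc
Nfil3: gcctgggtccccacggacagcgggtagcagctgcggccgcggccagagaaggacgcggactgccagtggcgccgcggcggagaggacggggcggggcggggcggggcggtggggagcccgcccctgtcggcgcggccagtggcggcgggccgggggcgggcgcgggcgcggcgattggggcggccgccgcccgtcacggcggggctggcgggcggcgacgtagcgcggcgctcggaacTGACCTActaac
Tef: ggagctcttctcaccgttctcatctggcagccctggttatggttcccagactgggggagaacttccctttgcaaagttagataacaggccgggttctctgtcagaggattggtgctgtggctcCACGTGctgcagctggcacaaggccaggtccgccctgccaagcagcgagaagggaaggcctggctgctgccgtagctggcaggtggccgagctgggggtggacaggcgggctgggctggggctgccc
The motifs searched on both strands were the E-box CACGTG, the D-box TTATGTAA and its variant TTACGTAA, the ROR element core TAGGTCA and the cAMP element TGACGTCA, in windows that also hold the 50 bases after the start. The E-box stood 127 bases before the start of Tef, 138 bases before its second start and 166 bases before a start of Per1. The ROR element core stood on the reverse strand 12 bases before the start used for Nfil3, printed as TGACCTA, and 31 bases after a start of Arntl. The cAMP element stood 9 bases before the start of Hlf. Of all 32851 windows of the same length, 7.15% hold the E-box, 2.61% the ROR element core, 1.79% the cAMP element, 0.938% the D-box and 0.119% its variant. Windows were at hand for 9 of the 10 members, 14 windows in all. These matches describe the letters and are not binding sites.

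Levels are log2 of the background-corrected and quantile-normalized intensity. An array's background limit is the 99th percentile of its raw intensity over 1325 probes for receptors of smell (odorant, vomeronasal, trace amine), which was 111 to 145 intensity units. Of the 10 genes, 9 passed the filter on dim probes (mean level above the 40th percentile), with 13 of their 18 probes. Nfil3 and Clock alone had a probe above background on all 8 arrays. Dbp was above on 6 arrays, Nr1d1 on 7, Per1 on 6, Tef on 5, Per2 on 3, Hlf on 1 and Arntl on 0. Nr1d2 did not pass, with both of its probes under background on all 8 arrays, and no level is claimed for it. On these arrays, Dbp, Nr1d1, Nfil3 and Clock therefore carry most of what could be measured.

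**Figure D1:**
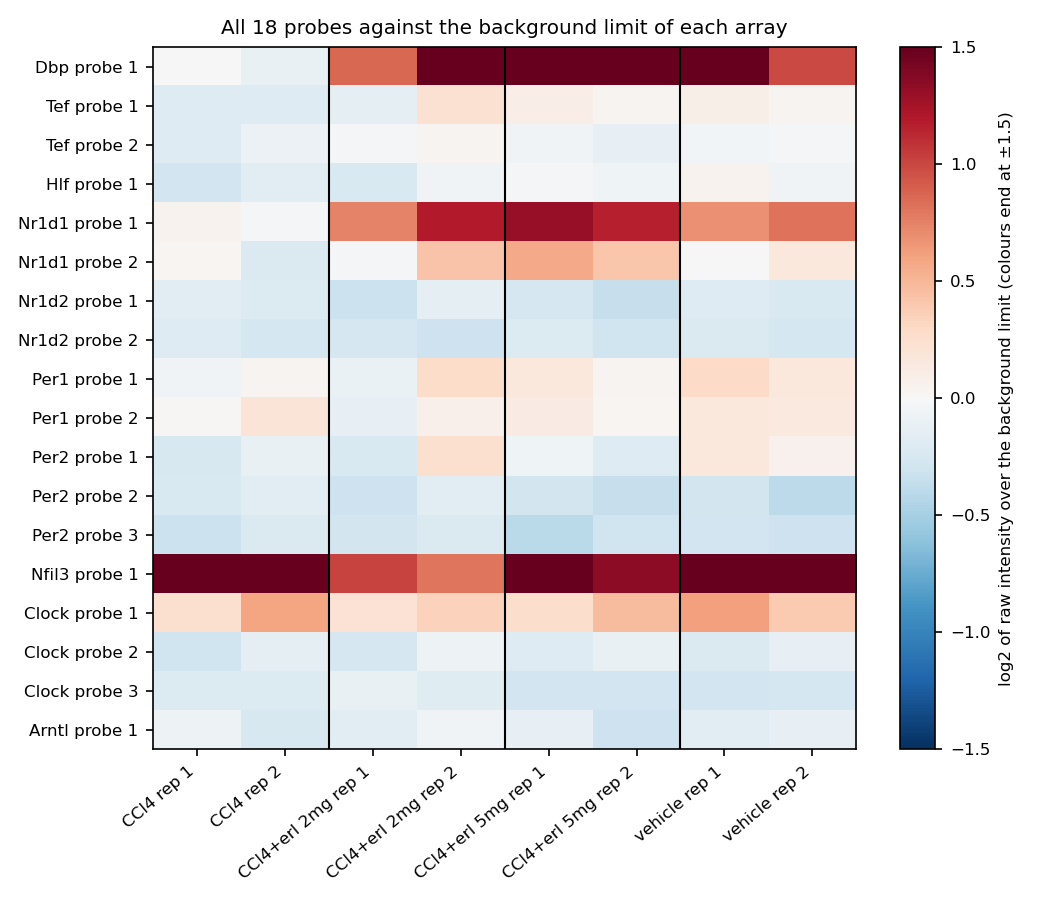
Heat map of the 18 probes (rows) on the 8 arrays (columns, CCl4 at left and vehicle at right). Colour is the log2 ratio of raw intensity to the array's background limit, white at the limit, red above and blue below, with colours ending at ±1.5. Dbp and the first Nr1d1 probe are red on all arrays but the 2 CCl4 arrays, where they stay near white. Nfil3 and the first Clock probe are red on all 8, and most other probes stay near white or blue.

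Dbp, the PAR factor best known as a clock output in liver, was low on both CCl4 arrays and higher on every erlotinib array, with a wide gap between the erlotinib 2 mg arrays. Its raw intensity was 111 and 127 on the CCl4 arrays, 214 and 1891 with erlotinib 2 mg, 707 and 503 with erlotinib 5 mg, and 430 and 267 with vehicle. The corresponding levels were 6.39 and 6.21 log2 with CCl4, 7.85 and 10.39 with erlotinib 2 mg, 9.42 and 8.74 with erlotinib 5 mg, and 8.50 and 7.84 with vehicle. Both CCl4 arrays lay under background and below every other array. The erlotinib 5 mg arrays lay above both vehicle arrays, and the erlotinib 2 mg arrays overlapped them.

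Dbp with CCl4 against vehicle fell by 1.87 ± 0.49 on the log2 scale (SE; adjusted p = 0.0172 by limma with Benjamini-Hochberg adjustment over 11022 genes). Because both CCl4 arrays were under background, the fall between group means is given as at least 3.47-fold, with those arrays set at their limit. Such a bound covers that limit alone, not the spread between arrays or the processing. The change was -1.54 without vehicle replicate 1 and -1.42 with no background correction. Dbp rose against CCl4 with erlotinib 2 mg by 2.82 ± 0.49 (limma adjusted p = 0.00121), at least 6.70-fold between group means in the same sense. That difference was 1.52 without erlotinib 2 mg replicate 2 and 4.14 without replicate 1, so 6.70-fold is no bound for each array. The rise with erlotinib 5 mg was 2.78 ± 0.49 (limma adjusted p = 0.00130), at least 6.50-fold higher. Both erlotinib comparisons and the vehicle comparison use the same 2 CCl4 arrays. Against vehicle Dbp stood 0.95 higher with erlotinib 2 mg (limma adjusted p = 0.455) and 0.91 higher with erlotinib 5 mg (limma adjusted p = 0.566), which missed the threshold. The value at 2 mg turned to -0.32 without erlotinib 2 mg replicate 2, and was 2.23 and called without replicate 1 (limma adjusted p = 4.45e-04). The call with CCl4 against vehicle was lost without CCl4 replicate 1, CCl4 replicate 2 or vehicle replicate 1 (limma adjusted p of 0.0609, 0.122 and 0.186), and all 3 calls were lost under median scaling, with the authors' normalized values and with an intensity trend (limma adjusted p of 0.0661 to 0.380).

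Tef and Hlf, the other PAR factors, were close to background. Tef was at 6.08 and 6.08 log2 on the CCl4 arrays, 6.18 and 6.63 with erlotinib 2 mg, 6.56 and 6.46 with erlotinib 5 mg, and 6.57 and 6.51 with vehicle. The CCl4 arrays were the lowest pair and did not overlap any other group. With CCl4 against vehicle Tef fell by 0.46 ± 0.14 (SE; limma adjusted p = 0.0345), at least 1.12-fold lower, and this call was lost without either CCl4 array or either vehicle array (limma adjusted p of 0.114 to 0.189). Against CCl4 it stood 0.33 higher with erlotinib 2 mg (limma adjusted p = 0.191) and 0.43 higher with erlotinib 5 mg (limma adjusted p = 0.0675). A second Tef probe, above background on 1 array, stood at -0.21 with CCl4 against vehicle (limma adjusted p = 0.343 over 15418 probes). Hlf was above background on vehicle replicate 1 alone and stood at -0.40 ± 0.13 with CCl4 against vehicle (limma adjusted p = 0.0558).

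**Figure D2:**
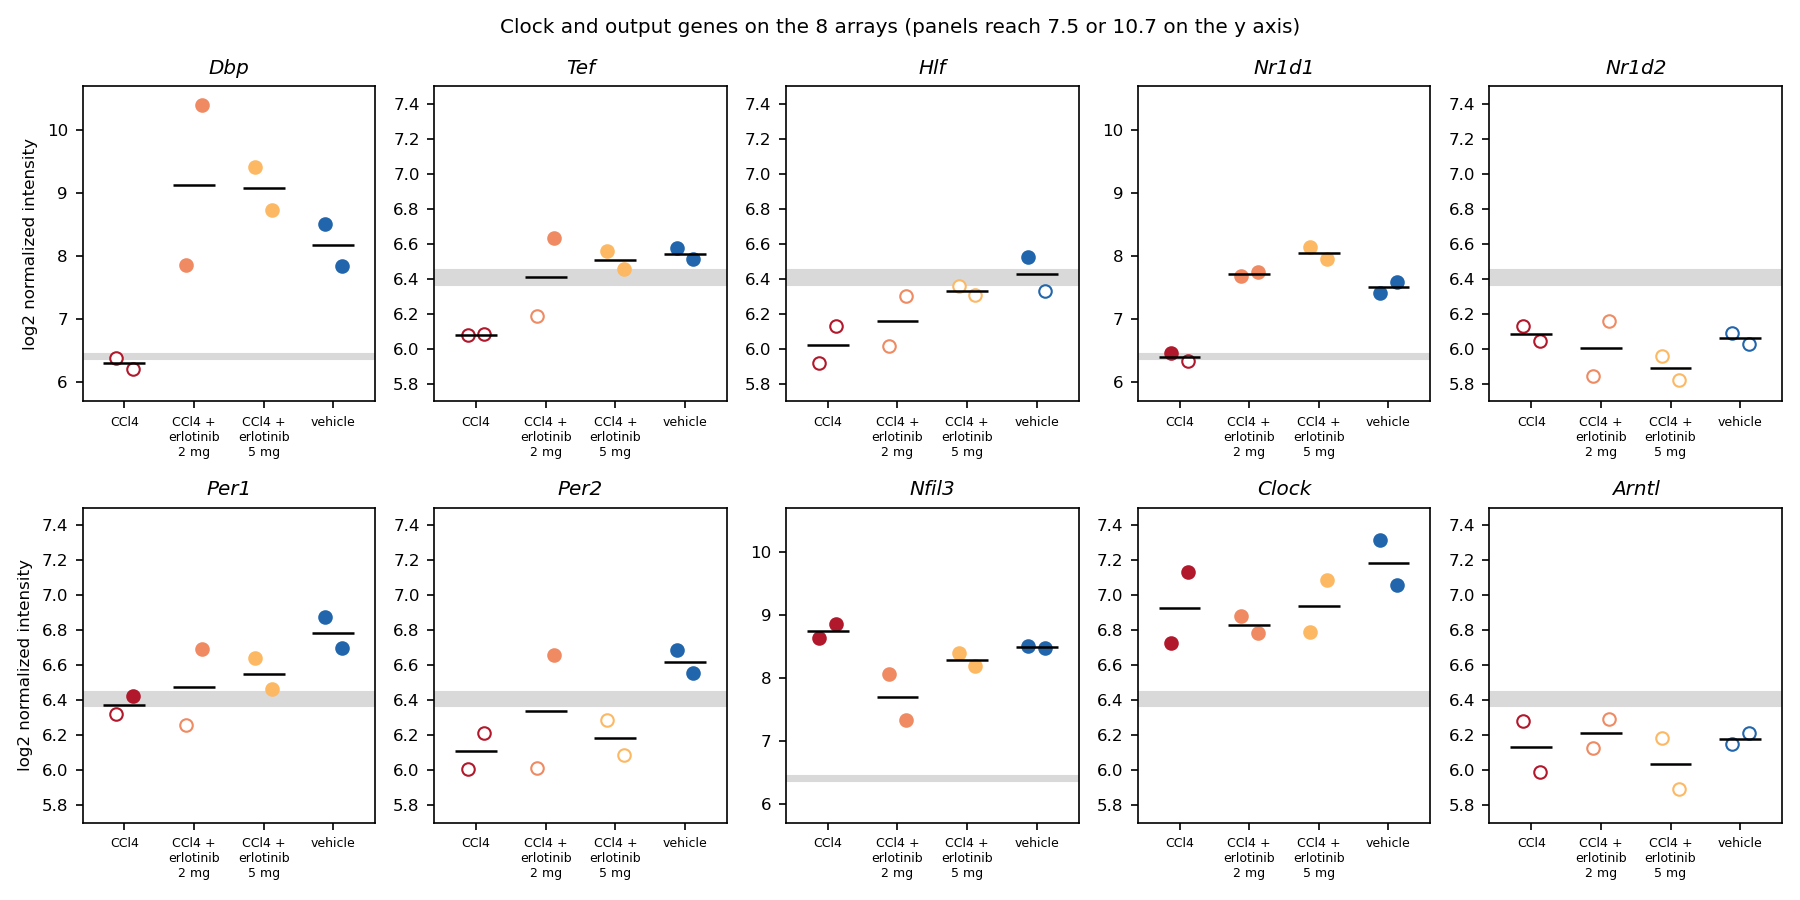
Levels of the 10 genes on each array, as log2 normalized intensity, by group (CCl4, the 2 erlotinib doses, vehicle). Points are arrays, filled where above background, bars are group means, and the grey band is the range of the background limit. Panels reach 7.5 or 10.7 on the y axis. CCl4 points are lowest for Dbp and Nr1d1, and the erlotinib 2 mg points of Dbp lie far apart.

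Nr1d1, the gene of REV-ERB alpha, was lowest with CCl4 and had the smallest within-group SD of the 9 members tested. It was at 6.46 and 6.33 log2 on the CCl4 arrays, 7.68 and 7.76 with erlotinib 2 mg, 8.14 and 7.96 with erlotinib 5 mg, and 7.42 and 7.60 with vehicle. The group means stood in the order CCl4, vehicle, erlotinib 2 mg and erlotinib 5 mg, and the arrays of no 2 groups overlapped. With CCl4 against vehicle Nr1d1 fell by 1.11 ± 0.12 (SE; limma adjusted p = 6.55e-06). Against CCl4 it rose by 1.32 ± 0.12 with erlotinib 2 mg (limma adjusted p = 4.58e-06) and by 1.65 ± 0.12 with erlotinib 5 mg (limma adjusted p = 6.16e-07). These 3 calls kept their side of the threshold in all 16 alternatives run for each of them. CCl4 replicate 2 was under background, so the size of each of these changes is less certain than its error says.

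Against vehicle, Nr1d1 stood 0.21 higher with erlotinib 2 mg, which missed the threshold, and rose by 0.54 ± 0.12 with erlotinib 5 mg (SE; limma adjusted p = 0.0254). That rise was lost without either erlotinib 5 mg array or either vehicle array (limma adjusted p of 0.0555 to 0.317). The difference between the doses, 0.33 for erlotinib 5 mg against 2 mg, also missed it (limma adjusted p = 0.996). A second Nr1d1 probe was at 6.43 and 6.03 log2 on the CCl4 arrays, 6.41 and 6.89 with erlotinib 2 mg, 7.23 and 7.02 with erlotinib 5 mg, and 6.42 and 6.70 with vehicle. On this probe the erlotinib 5 mg arrays were the highest and the other groups overlapped. It rose with erlotinib 5 mg against CCl4 by 0.90 ± 0.17 (SE; limma adjusted p = 0.00164 over 15418 probes). It missed the threshold with CCl4 against vehicle, at -0.33 (limma adjusted p = 0.282), and with erlotinib 2 mg against CCl4, at 0.42 (limma adjusted p = 0.161).

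Per1 and Per2, the period genes of the repressing limb, were near background. Per1 was at 6.32 and 6.42 log2 with CCl4, 6.26 and 6.69 with erlotinib 2 mg, 6.64 and 6.46 with erlotinib 5 mg, and 6.87 and 6.70 with vehicle. Per2 was at 6.01 and 6.21 log2 with CCl4, 6.01 and 6.66 with erlotinib 2 mg, 6.28 and 6.09 with erlotinib 5 mg, and 6.68 and 6.55 with vehicle. For both genes the CCl4 arrays lay under both vehicle arrays, and the erlotinib 2 mg arrays overlapped the CCl4 arrays. Neither gene was called: with CCl4 against vehicle, Per1 stood at -0.41 ± 0.14 (SE; limma adjusted p = 0.0747) and Per2 at -0.51 ± 0.17 (limma adjusted p = 0.0592). Against CCl4, Per1 stood at 0.10 with erlotinib 2 mg and 0.18 with 5 mg, and Per2 at 0.23 and 0.08 for the same doses. The second Per1 probe, above background on 7 arrays, stood at -0.16 with CCl4 against vehicle (limma adjusted p = 0.584), and the other 2 Per2 probes were under background on all 8 arrays.

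Nfil3, which encodes the repressor at D-boxes, was above background on every array and lowest with erlotinib 2 mg. It was at 8.64 and 8.85 log2 with CCl4, 8.06 and 7.33 with erlotinib 2 mg, 8.39 and 8.19 with erlotinib 5 mg, and 8.51 and 8.48 with vehicle. The erlotinib 2 mg arrays were the lowest, the CCl4 arrays the highest, and no groups overlapped. Nfil3 fell by 1.05 ± 0.18 with erlotinib 2 mg against CCl4 (SE; limma adjusted p = 8.66e-04) and kept that call in all 16 alternatives, at -0.69 without erlotinib 2 mg replicate 2. It stood at 0.25 with CCl4 against vehicle (limma adjusted p = 0.494) and at -0.46 ± 0.18 with erlotinib 5 mg against CCl4 (limma adjusted p = 0.151). It also fell by 0.80 ± 0.18 with erlotinib 2 mg against vehicle (limma adjusted p = 0.0184), and this call was lost without erlotinib 2 mg replicate 2 or either vehicle array (limma adjusted p of 0.187, 0.163 and 0.117). Erlotinib 5 mg stood 0.60 ± 0.18 above 2 mg, which did not pass (limma adjusted p = 0.718).

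Among genes above background on all 8 arrays, those whose profile was most like that of Nfil3, by the root mean square difference of log2 levels about each gene's mean over 8 arrays, were Fam25c (0.170), Fgg (0.198) and Orai1 (0.231), out of 3659 genes compared. Fgg encodes the gamma chain of fibrinogen and Orai1 a calcium channel of the plasma membrane.

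Clock and Arntl, the activators, made no call in any comparison. Clock was at 6.72 and 7.13 log2 with CCl4, 6.88 and 6.78 with erlotinib 2 mg, 6.79 and 7.09 with erlotinib 5 mg, and 7.31 and 7.06 with vehicle, so that the CCl4 arrays overlapped both erlotinib groups and the vehicle group. It stood at -0.26 ± 0.15 with CCl4 against vehicle (SE; limma adjusted p = 0.369), at -0.10 with erlotinib 2 mg against CCl4 and at 0.01 with erlotinib 5 mg against CCl4. Its other 2 probes were under background on all arrays. The only Arntl probe ranged from 5.89 to 6.29 log2 and was under background on all 8 arrays, so its differences of -0.17 to 0.07 have no order.

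Counted over the 9 members tested, 0 rose and 3 fell with CCl4 against vehicle (Dbp, Tef and Nr1d1), where 12.7% of all genes were called, 6.74% higher and 5.92% lower. With erlotinib 2 mg against CCl4, 2 rose (Dbp and Nr1d1) and 1 fell (Nfil3), where 8.57% of all genes were called, 4.16% higher and 4.42% lower. With erlotinib 5 mg against CCl4, 2 rose (Dbp and Nr1d1) and 0 fell, where 9.10% of all genes were called, 4.42% higher and 4.68% lower. With 9 members tested, each count rests on very few genes. Of their 13 probes, 3 were called in each of these comparisons, where 11.5%, 8.12% and 8.28% of all probes were. Groups did not overlap for 7 members with CCl4 against vehicle, where this held for 48.6% of all genes. It held for 4 members with erlotinib 2 mg against CCl4 (44.2% of all genes) and for 6 with erlotinib 5 mg (46.0% of all genes). The median log2 change of the members was -0.41, 0.13 and 0.18 in these 3 comparisons, and that of all genes -0.0024, -8.29e-04 and -0.0014.

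Between the doses, erlotinib 5 mg against 2 mg, limma called 0 members (the share of all genes called was 0.0181% higher and 0% lower). Before adjustment, 2 members had a limma p under 0.05. The share of all genes under that unadjusted threshold was not counted, so that count has nothing to be set against. Of the probes of the members 0 were called, with 0.0130% of all probes, and groups did not overlap for 3 members, as for 32.9% of all genes. Against vehicle, 1 member fell with erlotinib 2 mg (Nfil3, with 3.10% of all genes called, 1.70% higher and 1.41% lower), and 1 rose with erlotinib 5 mg (Nr1d1, with 1.90% of all genes called, 1.17% higher and 0.726% lower). In each of these 1 member probe was called, with 2.76% of all probes for erlotinib 2 mg and 1.76% for 5 mg, and groups did not overlap for 5 members, as for 42.3% of all genes at 2 mg and 41.0% at 5 mg. The comparisons against vehicle share the vehicle arrays. The count with CCl4 against vehicle moved to 6 without either erlotinib 2 mg array, when Hlf, Per1 and Per2 were also called lower, and to 1 without either CCl4 array or vehicle replicate 1. With erlotinib 5 mg against CCl4 it moved to 4 without either erlotinib 2 mg array, when Tef was also called higher and Nfil3 lower. Without erlotinib 2 mg replicate 1 the count with erlotinib 2 mg against CCl4 moved to 5 (Tef and Per2 also higher) and that against vehicle to 2 (Dbp also higher). Dbp was also called higher with erlotinib 5 mg against vehicle without either erlotinib 2 mg array, which made 2 calls there.

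**Figure D3:**
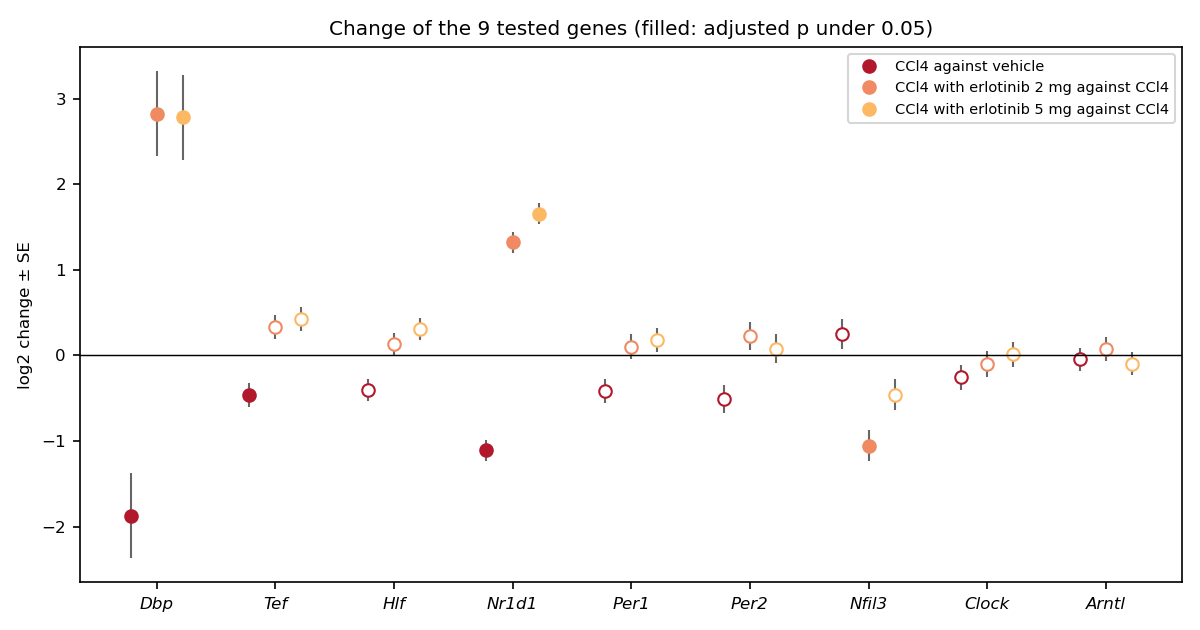
Log2 change of the 9 tested genes in 3 comparisons, drawn as points with SE bars (limma, 2 arrays a group) and filled where the adjusted p is under 0.05. Dbp at -1.87 and Nr1d1 at -1.11 lie below 0 with CCl4 against vehicle and above 0 with both erlotinib doses against CCl4, and Nfil3 is filled at -1.05 with erlotinib 2 mg.

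The 2 arrays of the erlotinib 2 mg group differed in several of these genes. Replicate 2 exceeded replicate 1 by 2.54 log2 in Dbp, by 0.64 in Per2, by 0.45 in Tef and by 0.44 in Per1, and it was 0.73 lower in Nfil3, while Nr1d1 differed by 0.08. The difference in Dbp ranked first among 11022 genes in that pair, and the median absolute difference was 0.127. The replicates of the other groups differed in Dbp by -0.17 (CCl4), -0.68 (erlotinib 5 mg) and -0.66 (vehicle), each as replicate 2 minus replicate 1. Pooled over the 4 pairs, Dbp had a within-group SD of 0.961, the largest of all 11022 genes, against a median of 0.119. It ranked first in the other normalizations and filters tried, and 66th without either erlotinib 2 mg array, where Usp2, described next, ranked 120th and 131st. Nfil3 ranked 210th (SD 0.279), Per2 314th (0.252) and Nr1d1 6877th (0.103).

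Other rhythmic liver transcripts, named after their values were seen, lay beside Dbp in this ranking. Cyp7a1, the rate-limiting enzyme of bile acid synthesis, ranked second (SD 0.898), or 4th without either CCl4 array and 9th without either vehicle array. Usp2, a deubiquitinase that acts on clock proteins, was next (0.809). It ranked 5th with the authors' values, 6th with no background correction and 4th without either erlotinib 5 mg array. Its rank was 2 under median scaling, without either CCl4 array and without either vehicle array. Usp2 was at 6.32 and 6.56 log2 with CCl4, 6.57 and 8.71 with erlotinib 2 mg, 7.64 and 6.97 with erlotinib 5 mg, and 6.94 and 6.56 with vehicle, so that the high array of its erlotinib 2 mg pair was also that of Dbp. In that pair Usp2 differed by 2.14 (rank 2), Alas1, the first enzyme of haem synthesis, by 1.62 (rank 4), the transcription factor gene Klf9 by 1.16 (rank 16), the clock repressor gene Ciart by 1.03 (rank 24) and Upp2, a uridine phosphorylase, by 1.03 (rank 25). Other genes of the same lists differed little or were lower on replicate 2, such as Insig2 by -0.76 (rank 46), Avpr1a by -0.37 and Cyp2b10 by -0.04. Elovl3 differed by 0.06, but it was under background on both arrays of that pair. Genes outside these lists also differed in that pair, such as Mfsd2a by 1.62 and Mup2 by 1.61. Klf9, listed as a glucocorticoid-responsive gene, differed by 1.36 (rank 3) in the erlotinib 5 mg pair, where Dbp differed by -0.68. Of the 27 other clock and output genes tested, 17 were higher and 10 lower on replicate 2 of the erlotinib 2 mg pair. The same counts were 8 higher and 19 lower with erlotinib 5 mg, 15 and 12 with CCl4, and 11 and 16 with vehicle. The share of all genes higher on replicate 2 was not counted. Cyp7a1 differed by -0.27 in the erlotinib 2 mg pair, and by -1.74 in the CCl4 pair and -1.76 in the vehicle pair. Whether the hour of death differed between arrays of a group was not tested.

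**Figure D4:**
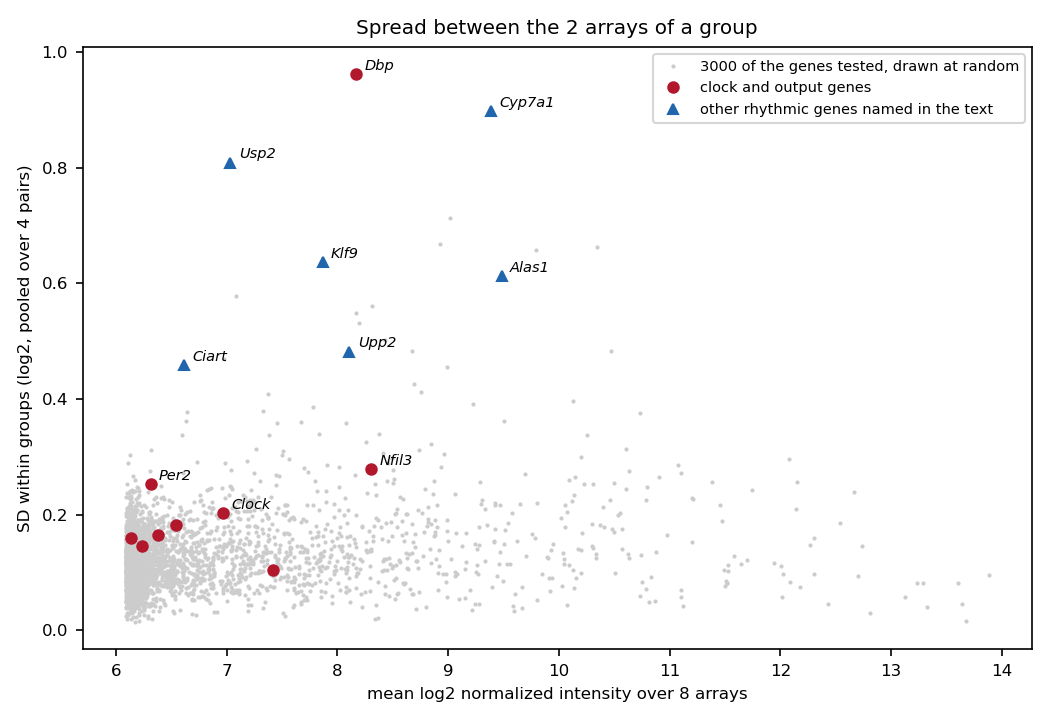
Within-group SD (log2, pooled over the 4 pairs of arrays) against the mean level (log2 normalized intensity over 8 arrays). Grey points are 3000 of the tested genes drawn at random and red circles the 9 members. Blue triangles are Cyp7a1, Usp2, Klf9, Alas1, Upp2 and Ciart, picked after their values were seen. Other clock and output genes tested are not drawn. Some of them lie under the median SD of 0.119, such as Pnpla2 at 0.067. Nampt at 0.059 does too, but it was under background on all 8 arrays. Dbp at 0.961, Cyp7a1 at 0.898 and Usp2 at 0.809 lie above the cloud, and Nr1d1 at 0.103 lies within it.

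Of 16 further clock genes, 14 had a probe and 11 were tested. Limma called 0 of the 11 in any of the 6 comparisons, and 0 to 2 a comparison had an unadjusted p under 0.05. Of all genes 12.7% were called with CCl4 against vehicle, and 8.57% and 9.10% against CCl4 with erlotinib 2 mg and 5 mg. The share was 0.0181% between the doses, and 3.10% and 1.90% against vehicle with erlotinib 2 mg and 5 mg. With 11 genes tested each count rests on very few. The share of all genes with an unadjusted p under 0.05 was not counted. The median log2 change of the 11 genes was -0.06 with CCl4 against vehicle, 0.18 with erlotinib 2 mg against CCl4 and 0.13 with erlotinib 5 mg against CCl4. The repressor gene Cry1 stood at -0.17 with CCl4 against vehicle and Cry2 at -0.06. Csnk1d and Csnk1e, kinase genes of the PER proteins, and Btrc, a ubiquitin ligase subunit gene, were above background on all 8 arrays, Rora and Usp2 on 7, and Cry1, Npas2 and Bhlhe40 on 0. Npas2, a paralogue of Clock, stood at 0.08, Rora, an activator at ROR elements, at 0.11, and the E-box repressor gene Bhlhe40 at -0.13. Per3 was not among the genes tested. Usp2 stood 1.21 ± 0.42 higher with erlotinib 2 mg against CCl4, which missed the threshold (SE; limma adjusted p = 0.0997).

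Of 18 genes known to be driven by the clock or its PAR factors in liver, 16 were tested. With CCl4 against vehicle 4 fell and 1 rose, Avpr1a, named after its values were seen (median -0.35). Of all genes 5.92% fell and 6.74% rose there. Upp2 was at 6.68 and 6.23 log2 with CCl4, 8.33 and 9.37 with erlotinib 2 mg, 8.73 and 8.06 with erlotinib 5 mg, and 8.93 and 8.55 with vehicle. The CCl4 arrays of Upp2 lay below all other arrays. With CCl4 against vehicle it fell by 2.29 ± 0.27 (SE; limma adjusted p = 1.26e-05), and rose against CCl4 by 2.39 ± 0.27 with erlotinib 2 mg (limma adjusted p = 2.33e-05) and by 1.94 ± 0.27 with erlotinib 5 mg (limma adjusted p = 1.38e-04). For Upp2 too CCl4 replicate 2 was under background, so the size of each of these changes is less certain than its error says.

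Elovl3, a fatty acid elongase, was at 6.09 and 6.20 log2 with CCl4, 5.98 and 6.03 with erlotinib 2 mg, 6.04 and 6.10 with erlotinib 5 mg, and 7.68 and 7.36 with vehicle. Only the vehicle arrays were above background. It fell against vehicle at least 2.21-fold with CCl4, at least 2.17-fold with erlotinib 2 mg and at least 2.19-fold with erlotinib 5 mg (limma adjusted p of 1.14e-06, 1.73e-06 and 3.77e-06), and its small differences between erlotinib and CCl4, all under background, have no order. Nr1i3, the gene of the xenobiotic receptor CAR, stood against vehicle at -0.84 ± 0.12 with CCl4, at -0.76 ± 0.12 with erlotinib 2 mg and at -0.97 ± 0.12 with erlotinib 5 mg, a fall in each (limma adjusted p of 1.43e-04, 0.00188 and 2.70e-04). Noct, which encodes nocturnin, with CCl4 against vehicle fell by 0.59 ± 0.13 (limma adjusted p = 0.00573), with CCl4 replicate 1 under background.

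With erlotinib 2 mg against CCl4, 5 of the 16 output genes rose and 1 fell (median 0.09), and with erlotinib 5 mg 3 rose and 2 fell (median 0.03). Of all genes 4.16% rose and 4.42% fell at 2 mg, and 4.42% rose and 4.68% fell at 5 mg. Cyp7a1 was at 10.95 and 10.68 log2 with erlotinib 2 mg, 9.82 and 9.31 with erlotinib 5 mg, and 9.29 and 7.55 with CCl4. With vehicle it was at 9.64 and 7.88, so the vehicle and CCl4 arrays overlapped. The erlotinib 2 mg arrays were above all others, and the CCl4 arrays, like the vehicle arrays, lay far apart. Cyp7a1 rose with erlotinib 2 mg by 2.40 ± 0.46 (SE; limma adjusted p = 0.00265). Pnpla2, the adipose triglyceride lipase gene, rose by 0.94 ± 0.11 with erlotinib 2 mg and by 0.85 ± 0.11 with erlotinib 5 mg (limma adjusted p of 5.34e-05 and 1.22e-04). Avpr1a, the vasopressin receptor gene, fell, at -0.90 ± 0.15 and -0.98 ± 0.15 at the same doses (limma adjusted p of 7.16e-04 and 3.28e-04). Alas1 fell by 1.22 ± 0.33 with erlotinib 5 mg (limma adjusted p = 0.0250), and was at 8.38 and 10.00 log2 on the 2 erlotinib 2 mg arrays. Against vehicle, 3 output genes rose and 3 fell with erlotinib 2 mg (1.70% and 1.41% of all genes). With erlotinib 5 mg against vehicle 1 rose and 3 fell (1.17% and 0.726% of all genes). Cyp2b10, a target of CAR, was among those that rose, by 0.97 ± 0.15 with erlotinib 2 mg against vehicle (limma adjusted p = 0.00127).

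Glucocorticoids and body temperature also set clock gene levels, and genes that respond to each are given beside the members. Their part in the results was not tested. Of 9 glucocorticoid-responsive genes 7 were tested, with 1 higher and 1 lower with CCl4 against vehicle (median 0.05), 0 and 1 with erlotinib 2 mg against CCl4 (median -0.22), and 1 and 1 with erlotinib 5 mg (median 0.17). Of all genes 12.7%, 8.57% and 9.10% were called in these comparisons, and with 7 genes tested each count rests on very few. Sgk1, a kinase gene induced by the hormone, rose with CCl4 against vehicle by 1.49 ± 0.17 (SE; limma adjusted p = 9.84e-06) and fell against CCl4, at -1.86 ± 0.17 with erlotinib 2 mg and -1.89 ± 0.17 with erlotinib 5 mg (limma adjusted p of 4.43e-06 and 2.44e-06). Tsc22d3, another hormone-induced gene, fell by 0.81 ± 0.19 with CCl4 against vehicle (limma adjusted p = 0.00860). Dusp1, a phosphatase gene, rose with erlotinib 5 mg against CCl4 by 0.71 ± 0.16 (limma adjusted p = 0.00860).

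Of 8 temperature-responsive genes 6 were tested, with 2 higher and 0 lower with CCl4 against vehicle (median 0.04), and 0 higher and 2 lower against CCl4 with either erlotinib dose (medians -0.47 and -0.47). The shares of all genes called were 12.7%, 8.57% and 9.10%, and 6 genes are few for such counts. Rbm3, induced by cold, rose with CCl4 by 0.81 ± 0.22 (SE; limma adjusted p = 0.0194). Hspa8, a constitutive heat shock protein gene, rose with CCl4 by 0.71 ± 0.16 (limma adjusted p = 0.00692) and fell against CCl4, at -0.64 ± 0.16 with erlotinib 2 mg and -0.61 ± 0.16 with erlotinib 5 mg (limma adjusted p of 0.0194 and 0.0235). Dnajb1, a heat-induced co-chaperone gene, fell against CCl4, at -0.81 ± 0.21 and -0.69 ± 0.21 at the same doses (limma adjusted p of 0.0203 and 0.0481). The CCl4 arrays of Dnajb1 lay apart, at 8.19 and 9.11 log2, and spanned the vehicle arrays at 8.45 and 8.81. The CCl4 arrays of Rbm3 also lay apart, at 8.24 and 7.45 log2.

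Cell type markers moved between the same groups, and their part in the results was not tested. Hepatocyte markers, 8 of 10 tested, included 7 above background on all arrays, with summed linear intensities of 52312 to 55572 with CCl4, 48913 to 49491 with erlotinib 2 mg, 50031 to 51965 with erlotinib 5 mg, and 55037 to 55119 with vehicle. Stellate cell markers (8 of 10, Col3a1 under background on all arrays) summed to 1740 to 2204 with CCl4, 1639 to 1748 with erlotinib 2 mg, 1323 to 1540 with erlotinib 5 mg, and 1195 to 1214 with vehicle. Macrophage markers (5 of 10) summed to 1449 to 1813 with CCl4, 1183 to 1484 with erlotinib 2 mg, 1306 to 1324 with erlotinib 5 mg, and 888 to 996 with vehicle. Endothelial markers (9 of 9, Kdr and Lyve1 under background) summed to 1463 to 1724, 1467 to 1536, 1384 to 1483, and 1699 to 1711 in the same order of groups. With CCl4 against vehicle, 0 hepatocyte markers were called higher and 2 of 8 lower (median log2 change -0.25), 4 of 8 stellate and 2 of 5 macrophage markers were called higher and 0 lower (medians 0.42 and 0.39), and 0 of 9 endothelial markers were called. In the same comparison 1 of 4 neutrophil markers was called higher and 0 lower. Against CCl4, 1 hepatocyte and 1 stellate marker were called lower with each erlotinib dose, and 1 hepatocyte marker was called higher with erlotinib 5 mg. Of all genes 12.7% were called with CCl4 against vehicle, and 8.57% and 9.10% against CCl4 with erlotinib 2 mg and 5 mg. The tested markers of bile duct (1 of 6) and B cells (1 of 4) were under background on all arrays, as were 3 of 4 tested markers each of T and NK cells and of neutrophils.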

How the data were processed

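The members, gene lists and alternatives were chosen with earlier results of these data known. Total RNA from frozen liver was labelled with Cy5 on Illumina bead arrays, per the labels. The deposited table used gives each probe's intensity on a linear scale, not normalized by the authors. A second deposited table holds intensity values that the authors normalized by a method not given in the sources used here. Ranks in the 2 tables correlated at 0.9996 to 0.9999 for the same array, at most 0.766 otherwise. The files hold no detection p-value. Raw array medians were 99.8 to 130, and 23.0% to 26.1% of probes were above the background limit.

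From the deposited intensities, limma (3.58.1, R 4.3.3) normexp correction (offset 50), quantile normalization and log2 were computed. Symbols came from the platform annotation: 23978 probes had 1, 0 several and 1719 none. Probes above the 40th percentile of mean level were kept (15418), and the brightest stood for each of 11022 genes, of which 4403 were under background on every array. One limma model (lmFit, eBayes, 4 residual and 11.9 prior degrees of freedom) over the 4 groups gave 6 contrasts, called at an adjusted p under 0.05, and was tested on simulated data. "At least" folds compare group means, set a group wholly under background at its limit, and do not cover the spread between arrays. Named genes are all members, up to 4 called genes per list and comparison, a fixed clock set and the 3 genes most like Nfil3; others were named after their values were seen. Alternatives were median scaling, no background correction, the authors' values, no filter, a filter on at least 2 arrays above background, the mean of a gene's probes, an intensity trend, only the compared arrays, and each array left out.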

Additional observations from a re-analysis of the deposited data

How the results depend on the processing

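No paired analysis was possible because the labels give no replicate numbers shared between groups. Of the 10 calls on members, the 3 of Nr1d1 that involve the CCl4 arrays and that of Nfil3 with erlotinib 2 mg against CCl4 held in all 16 alternatives of each. Members called with CCl4 against vehicle were 3 as reported, 1 with median scaling, the authors' values, no background correction or the mean of a gene's probes, 4 with the intensity trend (Dbp lost, Hlf and Per2 gained, limma adjusted p of 0.0321 and 0.0471) or only the compared arrays (Per2 gained, 0.0231), and 1 to 6 with an array left out. With erlotinib 2 mg against CCl4 they were 3, 2 with the authors' values, median scaling or the intensity trend, and 3 to 5 with an array left out. With erlotinib 5 mg against CCl4 they were 2, 1 with the authors' values or median scaling, 4 with only the compared arrays (Tef and Nfil3 gained, limma adjusted p of 0.0397 and 0.0472), and 2 to 4 with an array left out. Under the intensity trend Tef was gained there (0.0489) and Dbp lost, which left 2. Erlotinib 5 mg against 2 mg gave 0 throughout. Erlotinib 2 mg against vehicle gave 1, 0 with median scaling, the authors' values or no background correction, and 0 to 2 with an array left out. Erlotinib 5 mg against vehicle gave 1, 0 with median scaling or the mean of probes, and 0 to 2 with an array left out. Probe calls over the 6 comparisons were 11, 5 with the authors' values or median scaling, and 7 to 21 with an array left out. Beside the losses named above, Dbp with CCl4 against vehicle lost its call with no background correction or the mean of probes (limma adjusted p of 0.155 and 0.0504), and Tef there with those, the authors' values and median scaling (0.0694 to 0.292). Nfil3 with erlotinib 2 mg against vehicle lost it with no background correction, median scaling and the authors' values (0.0521 to 0.102), and Nr1d1 with erlotinib 5 mg against vehicle with median scaling and the mean of probes (0.681 and 0.0774). Signs turned in uncalled values: Clock with erlotinib 5 mg against CCl4 was -0.047 under median scaling, and with the mean of probes Per1 and Clock with erlotinib 2 mg against CCl4 were -0.042 and 0.0020 and Tef between the doses -0.025. With an array left out, the ranges that crossed 0 were -0.20 to 0.10 for Arntl with CCl4 against vehicle. With erlotinib 2 mg against CCl4 they were -0.010 to 0.28 (Hlf), -0.11 to 0.34 (Per1), -0.093 to 0.57 (Per2), -0.30 to 0.11 (Clock) and -0.071 to 0.23 (Arntl). With erlotinib 5 mg against CCl4 they were -0.025 to 0.18 (Per2), -0.19 to 0.21 (Clock) and -0.25 to 0.051 (Arntl). Between the doses they were -1.32 to 1.22 (Dbp), -0.13 to 0.31 (Tef), -0.15 to 0.28 (Per1), -0.49 to 0.17 (Per2) and -0.039 to 0.26 (Clock). With erlotinib 2 mg against vehicle they were -0.32 to 2.23 (Dbp), -0.34 to 0.10 (Tef), -0.58 to 0.040 (Per2) and -0.052 to 0.11 (Arntl). With erlotinib 5 mg against vehicle they were -0.087 to 0.013 (Tef), -0.20 to 0.0017 (Hlf) and -0.29 to 0.0046 (Arntl). The cause of these changes was not tested. A lone array was assumed to vary like the other groups. Signal over background limits Hlf, Per2, Arntl and Nr1d2, whose probes were under the limit on most arrays, and Tef and Per1, which lay close to it. Neither a detection p-value filter nor a slide term was run, as the files lack both.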

Other observations

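Profiles of other members were compared in the same way as that of Nfil3, after their values were seen and with members that were not above background on all arrays. The genes nearest to Nr1d1 were Slc25a47 (root mean square difference 0.150 log2), Acaa1b (0.156) and Slc47a1 (0.188). Slc25a47 encodes a mitochondrial carrier, Acaa1b a peroxisomal thiolase and Slc47a1 a drug exporter. The genes nearest to Dbp were Rgs16 (0.710), Inmt (0.736) and Thrsp (0.792). Those nearest to Tef were Wdr45 (0.060), Clcn7 (0.070) and Acot12 (0.075). The measure is not scaled to a gene's own range, so these distances are not compared between members. The values describe 8 arrays of 4 groups, and genes that share a group difference come out near each other.

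Below Dbp, Cyp7a1 and Usp2, the 10 genes with the largest within-group SD held Cyp8b1 (0.796), which sets the kind of bile acid made, Hamp (0.713), the gene of the iron hormone hepcidin, and Car3 (0.664), a carbonic anhydrase gene. The others were Serpina1e (0.705), Aox3 (0.688), Mup2 (0.667) and Mfsd2a (0.665).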
